A study of Rattus norvegicus with 25 samples.

Results

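The cytosolic ribosomal protein genes were followed across 25 striatal RNA-seq libraries from female Sprague Dawley rats lesioned with 6-OHDA (6-hydroxydopamine), a toxin that destroys dopamine neurons and is used to model Parkinson's disease. All animals carried the lesion and all received levodopa at 6 mg/kg QD, so neither an unlesioned nor an untreated group enters any comparison. The levodopa arm held 5 libraries, and 2 further arms of 10 libraries each received trapidil in addition, given BID at 7.5 mg/kg or at 15 mg/kg. Trapidil is a vasodilator known to oppose platelet-derived growth factor. Dosing lasted 14 days, and striatum from the lesioned side was taken on day 15. The labels place collection 1 hour from dosing without a direction, and the series title names levodopa together with benserazide. Genes were taken by name: symbols of the form Rpl or Rps followed by a number, plus Rplp0 to Rplp2 and Rpsa, without the Rps6k kinases, and with at least 100 reads summed over the 25 libraries. Of 28909 gene lines in the count table, 87 matched the name and 73 reached the read minimum. The genes were thus chosen by name and by a floor on the summed read count, and neither uses the arm. The choice was made with earlier results of these data known.

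The 73 genes comprise 26 proteins of the small (40S) subunit, 34 of the large (60S) subunit, Rplp0 of the P stalk, and 12 copies, variants or other genes that the name pattern also takes. One of the last group, Rps19bp1, encodes a binding protein of Rps19 and no ribosomal protein. Just inside the read minimum lay Rps19 with 196 reads, and just outside it lay Rpl36a with 91 reads and Rpl9 with 62 reads. All 73 passed the filter on low counts and were tested. Of 79 core ribosomal protein genes listed by role, 74 had a line under their own name, 61 are in the set, and 8 were listed at 0 in every library. Rps7, Rps13, Rps26, Rpl22 and Rplp1 had no line under their own names in the count table.

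Cytosolic ribosomes are built from ribosomal RNA and a fixed set of proteins, with the small subunit reading the messenger RNA and the large subunit joining amino acids. The messenger RNAs of these proteins typically begin with a 5′ terminal oligopyrimidine (TOP) tract, a C followed by a run of C and T bases. Through this tract the growth-sensing kinase complex mTORC1 and its partner Larp1 control their translation. Control of translation is not read by a count of messenger RNA.

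RefSeq start-site windows of the GRCr8 build were read for 56 of the 73 genes. Each window spans 15 bases before the annotated start and 15 bases from the start on. A C followed by at least 5 bases that are each C or T was present on the sense strand in 38 of the 56 windows (67.9%), against 5837 of 27456 windows of that length in the whole RefSeq promoter table (21.3%). On the opposite strand it was present in 6 of the 56 (10.7%), against 24.6% of all. Among core genes 36 of 49 held the tract (73.5%), and among the copies, variants and other genes 2 of 7 did (28.6%). With the tract required to begin at the first annotated base, 13 of the 56 (23.2%) held it, against 1.61% of all windows. The windows below are shown because the results turn on these genes; they run 5′ to 3′ with the longest tract in capitals. Rps27, Rpl37a and Rps28 stood far above the other libraries in levodopa replicate 2, Rpl35 had the smallest p against levodopa, and Rpl34 had the smallest p with levodopa replicate 2 left out. Rplp0 stands for the stalk, and Rpl41 and Rpl7l1 show starts with no such tract. The coordinates are of GRCr8, whereas the counts were made on Rnor_6.0.
Rps27 (chr2:177964592-177964621, minus strand): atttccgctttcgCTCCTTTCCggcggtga
Rps28 (chr7:15311319-15311348, minus strand): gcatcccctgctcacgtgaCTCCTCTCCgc
Rpl37a (chr9:81748076-81748105, plus strand): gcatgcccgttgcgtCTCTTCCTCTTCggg
Rpl35 (chr3:43165907-43165936, minus strand): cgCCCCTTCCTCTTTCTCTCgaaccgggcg
Rpl34 (chr2:221962269-221962298, minus strand): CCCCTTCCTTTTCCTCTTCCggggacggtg
Rplp0 (chr12:46718376-46718405, minus strand): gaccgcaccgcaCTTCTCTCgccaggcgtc
Rpl41 (chr7:1563483-1563512, minus strand): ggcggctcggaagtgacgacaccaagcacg
Rpl7l1 (chr9:21695703-21695732, plus strand): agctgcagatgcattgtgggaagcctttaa
The tract of Rpl37a begins exactly at the annotated first base and runs for 12 bases, whereas that of Rpl35 begins 13 bases before it. The tract of Rpl34 is already present at the first base of the window, 15 bases before the start. Where it begins was not read. A match describes the letters in this window and is not evidence of control.

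The libraries held 10838513 to 20532290 counted reads. The labelled tissue was met by its neuronal markers: all 9 genes of a spiny projection neuron list, the principal neurons of the striatum, were detected, with a summed level of 8904 to 16030 CPM (reads scaled to a common library total). Levodopa replicate 2 stood apart. It held the highest share of mitochondrially encoded reads in its arm (18.87%, other levodopa libraries 8.24% to 13.9%) and the lowest spiny projection neuron level of all 25 libraries (8904 CPM, other levodopa libraries 12400 to 16030 CPM). In levodopa replicate 2, 12 of 12 oligodendrocyte, 10 of 10 microglial, 9 of 10 astrocytic and 7 of 7 endothelial marker genes tested lay above every other levodopa library, and 0 of 9 spiny projection neuron genes did. The endothelial marker Cldn5 was listed at 0. Its choroid plexus marker sum was the highest of all 25 (28.7 CPM, other levodopa libraries 1.17 to 8.18 CPM), with 1 of 4 genes above every other levodopa library. Its blood marker sum was the highest of its arm (854.2 CPM, other levodopa libraries 348.6 to 494.5 CPM), with 3 of 4 genes above. The 7.5 mg/kg replicate 1 had the lowest read total. No batch is given in the labels. Differences from levodopa are therefore given with all libraries and, beside them, without levodopa replicate 2.

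Ribosomal protein genes took a similar share of the reads in the 3 arms. In the levodopa arm the 73 genes summed to 1.21% of counts in replicate 1, 1.58% in replicate 2, 1.01% in replicate 3, 1.06% in replicate 4 and 1.07% in replicate 5. The 7.5 mg/kg libraries ran from 1.00% to 1.23% with a median of 1.08%, and the 15 mg/kg libraries from 1.03% to 1.26% with a median of 1.10%. Replicate 2 of the levodopa arm lay above all 24 other libraries, and the remaining 4 levodopa libraries lay within 1.01% to 1.21%, inside the range of the trapidil arms. The arm means were 1.19% ± 0.23 (SD, n = 5), 1.11% ± 0.079 (SD, n = 10) and 1.12% ± 0.083 (SD, n = 10). Without replicate 2 the levodopa mean was 1.09% ± 0.086 (SD, n = 4). Counts are not corrected for transcript length, so no level is compared between genes. In whole tissue, fewer cells of a type and less RNA per cell cannot be told apart.

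**Figure D1:**
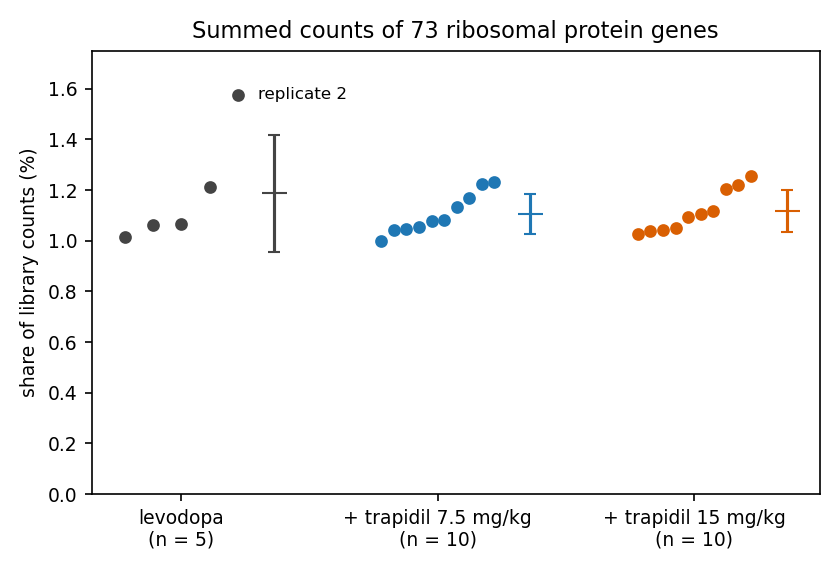
Share of each library's counts (vertical axis, percent) taken by the 73 ribosomal protein genes, by arm; each point is 1 library and the cross bars show the arm mean and SD. Levodopa replicate 2 sits at 1.58%, and the other 24 libraries lie between 1.00% and 1.26%.

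No ribosomal protein gene passed the threshold at either dose. With trapidil at 7.5 mg/kg against levodopa, 0 of 73 were called higher and 0 lower with edgeR at an adjusted p of 0.05, where 0% and 0.0283% of the 14142 genes tested were called. The median log2 fold change over the 73 genes was -0.086, against 0.004 over all genes tested. Of the values 56 were negative (76.7%, against 48.9% of all genes) and 17 positive. At an unadjusted p under 0.05, 0 were higher and 10 lower (13.7%), where 5.02% and 6.64% of all genes were. Those 10 were Rpl35, Rps28, Rps15a, Rpl41, Rpl13a, Rps25, Rps20, Rps16, Rpl37a and Rps3a. DESeq2 called 0 of the 73, against 0.0636% of all genes higher and 0.318% lower. Limma-voom with quality weights also called 0, against 0.134% and 0.587%.

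With levodopa replicate 2 left out, the sign of the median changed. That library was the highest of its arm for 62 of the 73 genes, so leaving it out lowers their levodopa mean. At 7.5 mg/kg the median became 0.043, against 0.006 over all genes. Of the values 49 were positive (67.1%, against 52.0% of all genes) and 24 negative, and of the 56 negative values 33 became positive. Again 0 of the 73 were called, against 0% higher and 0.0634% lower of the 14201 genes then tested. At an unadjusted p under 0.05, 4 were higher (Rpl34, Rpl10, Rps4x and Rpl22l1; 5.48%) and 0 lower, against 3.42% and 3.18% of all genes. Limma-voom, which gives each library a weight from its own scatter, also gave a positive median with all libraries kept (0.015).

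The comparison of 15 mg/kg with levodopa shares its levodopa libraries with the one above. With edgeR 0 of 73 were called higher and 0 lower, where 0.304% and 1% of all genes tested were called. The median was -0.085 against 0.001 over all genes, with 58 negative (79.5%, against 49.8% of all genes) and 15 positive values. At an unadjusted p under 0.05 only Rpl22l1 was higher and only Rpl35 lower, where 8.26% and 11.2% of all genes were. Without levodopa replicate 2 the median was 0.053, against 0.002 over all genes. Of the values 59 were positive (80.8%, against 50.8% of all genes) and 14 negative, and 44 of the 58 negative values became positive. Then 0 were called, against 0.00704% higher and 0.134% lower of all genes, and 4 lay higher at an unadjusted p under 0.05 (Rpl34, Rps4x, Rpl22l1 and Rpl7; 5.48%) and 0 lower, against 6.2% and 6.53% of all genes. With all libraries DESeq2 called 0, against 1.53% of all genes higher and 2.91% lower, and limma-voom 0, against 2.11% and 2.95%.

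The marker lists of other cell types are given here as median log2 fold changes against levodopa at 7.5 and 15 mg/kg, with calls by edgeR. Of 12 oligodendrocyte markers, 12 were negative at both doses, with medians of -0.30 and -0.61 (0 and 6 called lower), and -0.22 and -0.51 without levodopa replicate 2 (0 called). Of 7 endothelial markers, 7 were negative at both doses, with medians of -0.41 and -0.40 (0 and 1 called lower), and -0.17 and -0.16 without that library (0 called). The 10 microglial markers had medians of -0.19 and -0.28, and -0.021 and -0.083 without it, and the 10 astrocyte markers -0.14 and -0.15, and 0.015 and 0.006 without it, with 0 called. The 9 spiny projection neuron markers had medians of 0.035 and 0.083, and -0.076 and -0.067 without it, with 0 called. All 7 ependymal markers were positive at both doses, with medians of 0.905 and 1.414, and 0.967 and 1.475 without that library, with 0 called. The 4 choroid plexus markers had medians of 0.544 and 0.864 (0 and 1 called lower), and 0.996 and 0.879 without it (0 called). Medians were -0.099 and -0.061 for 6 cortical neuron markers and 0.093 and -0.098 for 4 blood markers. Without that library they were -0.168 and -0.196 (7 tested) and 0.362 and 0.183, with 0 called either way. The part of these markers in the values of the ribosomal protein genes was not tested.

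**Figure D2:**
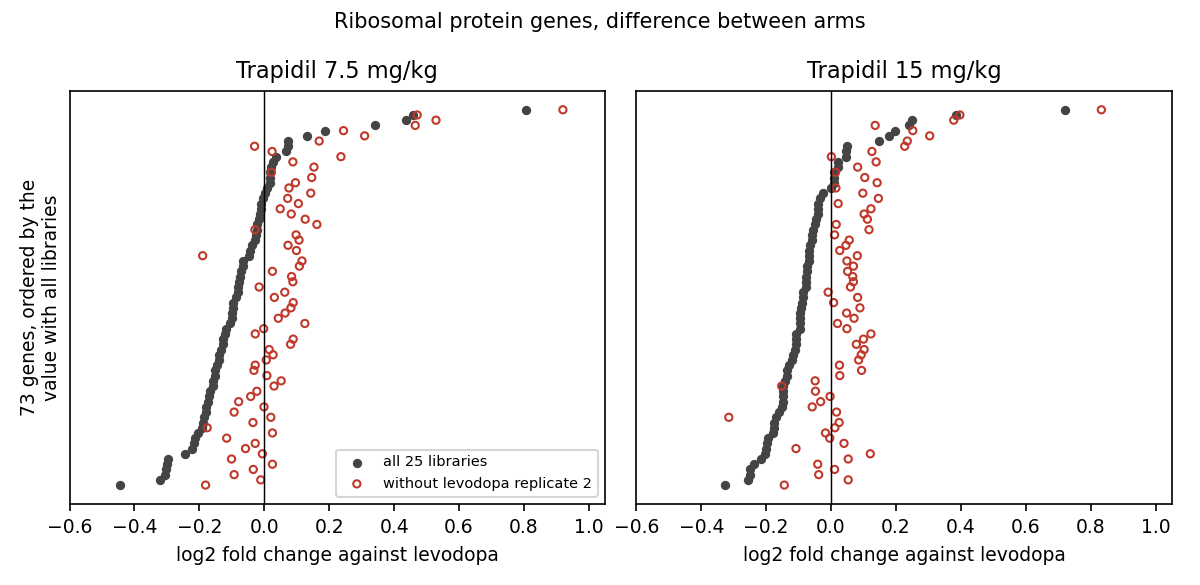
Log2 fold change against levodopa (horizontal axis) of the 73 genes at 7.5 mg/kg (left) and 15 mg/kg (right), each gene on its own line in the order of its value with all libraries; filled points use all 25 libraries and open points leave out levodopa replicate 2. The filled points have medians of -0.086 and -0.085, and the open points 0.043 and 0.053.

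Between the doses the values centred near 0. The median difference of 15 mg/kg from 7.5 mg/kg was 0.014, against -0.002 over all genes, with 61 of the 73 within 0.1 of 0 on the log2 scale. With edgeR 0 of 73 were called in either direction, where 0.0283% of all genes were called higher and 0% lower, and the unadjusted counts were 1 higher and 0 lower against 1.49% and 2.14% of all genes. The gene with the smallest p was Rps4y2, a variant of the small-subunit protein Rps4, at 3.70 ± 0.56 CPM against 2.93 ± 0.79 (SD, n = 10 each). Its log2 fold change was 0.33 ± 0.14 (SE) with an adjusted p of 0.999. DESeq2 called 0 of the 73, against 0.0424% of all genes higher and 0% lower, and limma-voom 0, against 0.0849% and 0.00707%. Without levodopa replicate 2 the unadjusted counts were again 1 and 0, against 1.95% and 2.74% of all genes, and 0 were called, against 0.0282% and 0%.

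Within the small subunit, the median log2 fold change of the 26 genes was -0.10 at both doses and 0.028 and 0.044 at 7.5 and 15 mg/kg without levodopa replicate 2. Rps28, a short protein of the small subunit near the mRNA exit site, read 76.0, 175.6, 81.7, 82.9 and 111.7 CPM in levodopa replicates 1 to 5. Its 7.5 mg/kg values ran from 41.9 to 96.6 CPM with a median of 78.2, and its 15 mg/kg values from 64.3 to 112.8 with a median of 87.5. The arms overlapped, with the highest value in levodopa replicate 2 and the lowest in 7.5 mg/kg replicate 1. The log2 fold change at 7.5 mg/kg was -0.44 ± 0.16 (SE, adjusted p = 0.333) and -0.18 without levodopa replicate 2 (adjusted p = 0.861). Over the alternatives the adjusted p for that gene ran from 0.0263 to 0.861. At 15 mg/kg the log2 fold change was -0.25 ± 0.17 (SE), and 0.011 without that library.

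Rps27, a zinc-binding protein of the small subunit, read 122.2, 299.8, 109.0, 140.1 and 159.0 CPM in levodopa replicates 1 to 5. In the trapidil arms it ran from 71.2 to 174.6 CPM (median 139.4) at 7.5 mg/kg and from 118.6 to 179.5 CPM (median 143.0) at 15 mg/kg. Apart from levodopa replicate 2 and 7.5 mg/kg replicate 1, the 3 arms overlapped throughout. The log2 fold changes were -0.30 ± 0.18 and -0.20 ± 0.18 (SE), and 0.025 and 0.12 without levodopa replicate 2. Rps15a, a protein of the small-subunit body, read 131.5, 220.6, 123.6, 132.2 and 134.2 CPM in the levodopa arm, 116.9 to 141.0 CPM (median 125.8) at 7.5 mg/kg and 119.1 to 147.1 CPM (median 129.7) at 15 mg/kg. Its log2 fold changes were -0.22 ± 0.090 (SE, adjusted p = 0.365) and -0.18 ± 0.090 (SE, adjusted p = 0.277). Without levodopa replicate 2 they were -0.028 and 0.012 (adjusted p = 0.961 and 0.963; over the alternatives 0.0946 to 0.961 and 0.0844 to 0.963).

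Several small-subunit proteins have roles of their own. Rpsa, known also as the laminin receptor precursor, had 405.7 ± 91.9 CPM under levodopa (SD, n = 5), 401.0 ± 69.8 at 7.5 mg/kg and 384.7 ± 38.9 at 15 mg/kg (SD, n = 10 each). Its log2 differences were -0.017 ± 0.11 and -0.076 ± 0.11 (SE), and 0.13 and 0.067 without levodopa replicate 2. Rps3, which lines the mRNA entry channel and is also tied to DNA repair, differed from levodopa by -0.12 ± 0.10 and -0.15 ± 0.10 (log2, SE; adjusted p = 0.661 and 0.438), and by -0.028 and -0.058 without that library. Rps27a is made as a fusion with ubiquitin, and its differences were -0.097 ± 0.096 and -0.11 ± 0.096 (log2, SE; adjusted p = 0.703 and 0.562), or 0.089 and 0.078 without it. Rps19, whose mutation causes Diamond-Blackfan anaemia in humans, was read from 2 to 13 reads a library, and its fitted differences of 0.46 ± 0.39 and 0.38 ± 0.39 (log2, SE) rest on those few reads (0.47 and 0.40 without levodopa replicate 2). The line of Rps18 held 874 reads in all, while its copy Rps18l1 held 77970.

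Within the large subunit, the median log2 fold change of the 34 genes was -0.081 at 7.5 mg/kg and -0.094 at 15 mg/kg, and 0.068 and 0.070 without levodopa replicate 2. Rpl35, which sits at the exit of the peptide tunnel, had the lowest adjusted p of the set in both comparisons with levodopa. It read 238.3, 401.6, 213.0, 222.2 and 224.4 CPM in levodopa replicates 1 to 5, 192.0 to 244.8 CPM (median 201.8) at 7.5 mg/kg and 191.0 to 240.3 CPM (median 214.2) at 15 mg/kg. Levodopa replicate 2 lay far above the rest, and the other 4 levodopa libraries lay inside the ranges of both trapidil arms. The log2 fold changes were -0.31 ± 0.10 (SE, adjusted p = 0.287) and -0.25 ± 0.10 (SE, adjusted p = 0.177). Without levodopa replicate 2 they were -0.093 and -0.038 (adjusted p = 0.844 and 0.876; over the alternatives 0.0757 to 0.844 and 0.0648 to 0.876).

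Rpl34, unlike Rpl35, had positive values in both comparisons with levodopa when all libraries were used, and it did not pass the threshold. This large-subunit protein read 34.9, 59.7, 33.1, 36.8 and 40.1 CPM in levodopa replicates 1 to 5, 36.9 to 51.9 CPM (median 45.7) at 7.5 mg/kg and 37.4 to 46.7 CPM (median 42.3) at 15 mg/kg. Apart from levodopa replicate 2, which was the highest of all 25, 3 levodopa libraries lay below every trapidil library and 1 lay within their range. The log2 fold changes were 0.13 ± 0.098 (SE, adjusted p = 0.605) and 0.050 ± 0.097 (SE, adjusted p = 0.820). Without levodopa replicate 2 they were 0.31 and 0.23 (adjusted p = 0.206 and 0.20), and over the alternatives the adjusted p ran from 0.0856 to 0.848 and from 0.126 to 0.995.

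Rpl37a, a small zinc-binding protein, read 267.0, 618.5, 254.4, 283.1 and 327.8 CPM in levodopa replicates 1 to 5, 193.2 to 346.6 CPM (median 275.5) at 7.5 mg/kg and 246.0 to 347.5 CPM (median 294.9) at 15 mg/kg. Rpl41, the shortest ribosomal protein, read 326.6, 621.8, 280.3, 277.6 and 345.3 CPM in the levodopa arm, 219.9 to 361.8 CPM (median 297.3) at 7.5 mg/kg and 266.7 to 362.8 CPM (median 314.8) at 15 mg/kg. For both genes the single high value was levodopa replicate 2 and the lowest was 7.5 mg/kg replicate 1. The log2 fold changes of Rpl37a were -0.32 ± 0.15 and -0.26 ± 0.15 (SE), and -0.011 and 0.053 without levodopa replicate 2. Those of Rpl41 were -0.30 ± 0.13 and -0.22 ± 0.13 (SE), and -0.034 and 0.053 without it. With the mitochondrial read share of each library added to the model, 3 genes were called lower at 7.5 mg/kg: Rps28 (log2 fold change -0.45, adjusted p = 0.0263), Rpl37a (-0.31, adjusted p = 0.0389) and Rpl41 (-0.31, adjusted p = 0.0421). At 15 mg/kg 1 was, Rpl37a (-0.24, adjusted p = 0.0487). In that model 0.552% of all genes were called lower at 7.5 mg/kg and 3.25% at 15 mg/kg. Rpl37a was named after its values were seen.

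**Figure D3:**
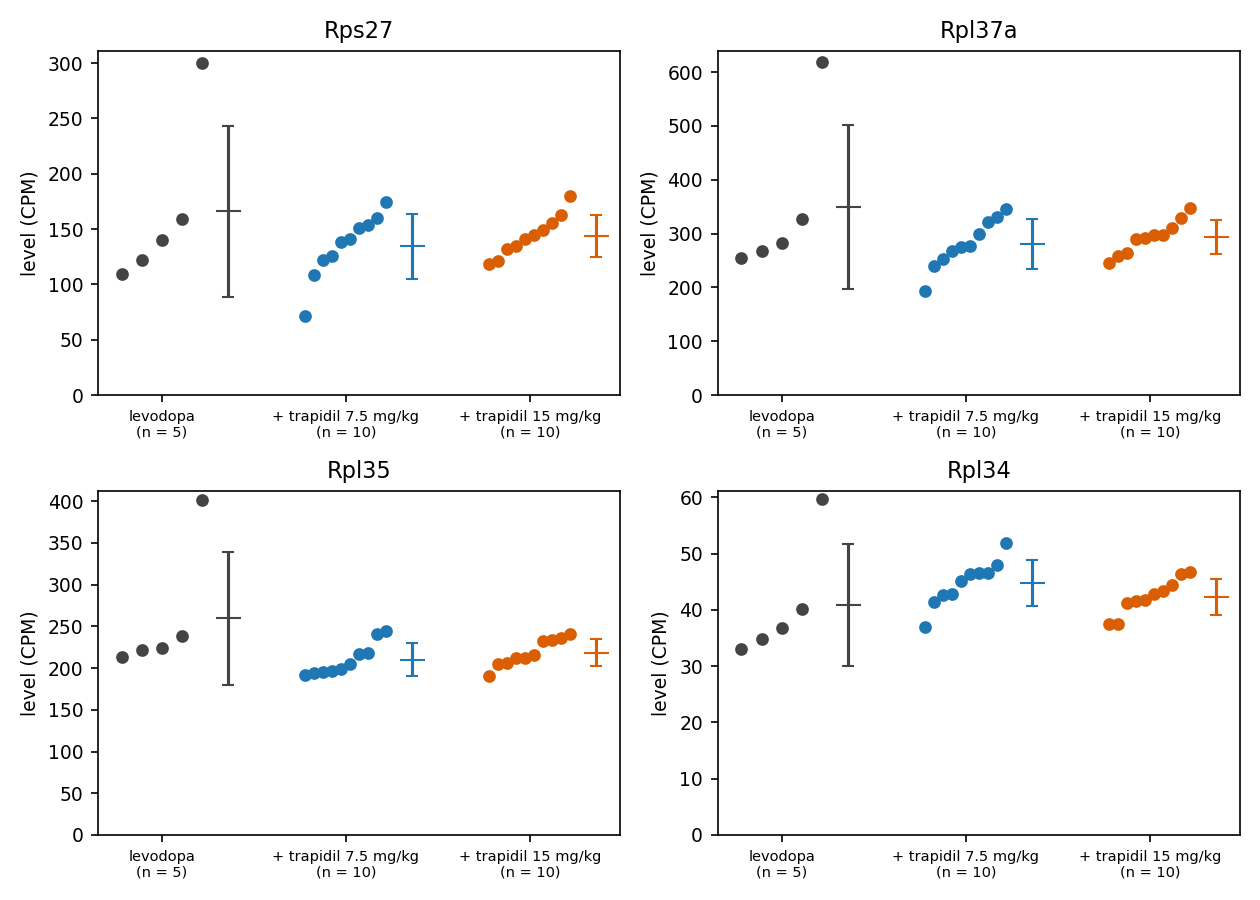
Levels (vertical axes, CPM) of Rps27, Rpl37a, Rpl35 and Rpl34 in each library by arm; each point is 1 library and the cross bars show the arm mean and SD. In every panel the highest of the 25 points is levodopa replicate 2, at 299.8, 618.5, 401.6 and 59.7 CPM.

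Rpl3, Rpl6 and Rpl7 varied least within arms, with SDs of 0.107, 0.108 and 0.115 on the log2 scale, against a median of 0.193 over the 73 genes and 0.191 over all genes tested. Rpl3 lines the peptidyl transferase centre, and its means were 437.8 ± 46.3, 434.5 ± 34.4 and 426.2 ± 23.04 CPM under levodopa alone and at the lower and higher dose (SD, n = 5, 10 and 10). Its log2 fold changes were -0.011 and -0.039, or 0.049 and 0.022 without levodopa replicate 2. Rpl4, which reaches into the exit tunnel, differed from levodopa by -0.039 ± 0.075 and -0.065 ± 0.075 (log2, SE), and by 0.073 and 0.046 without that library. Rpl5 and Rpl11 form a particle with 5S RNA that can bind the p53 regulator Mdm2. Rpl5 differed by -0.12 ± 0.068 and -0.096 ± 0.068 and Rpl11 by -0.066 ± 0.092 and -0.057 ± 0.092 (log2, SE; adjusted p from 0.456 to 0.802). Rpl5 stood at -0.002 and 0.020 and Rpl11 at 0.11 and 0.12 without levodopa replicate 2. Rpl10, added late in large-subunit assembly, differed by 0.074 ± 0.066 and 0.009 ± 0.066, and by 0.17 and 0.10 without it. Rplp0, the base of the stalk that recruits elongation factors, read 418.1, 522.4, 315.5, 335.5 and 333.8 CPM in the levodopa arm, and its differences were -0.030 ± 0.099 and -0.077 ± 0.098 (log2, SE), or 0.11 and 0.060 without it. None of these genes passed the threshold.

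Among the paralogues, Rpl22l1, the partner gene of Rpl22, read 30.6, 42.3, 38.2, 32.2 and 41.1 CPM in levodopa replicates 1 to 5, 35.3 to 49.6 CPM (median 41.7) at 7.5 mg/kg and 37.0 to 46.2 CPM (median 41.9) at 15 mg/kg. Of the levodopa libraries, 2 lay below every trapidil library and the other 3 within their range. The log2 fold changes were 0.19 ± 0.092 and 0.20 ± 0.092 (SE, adjusted p = 0.428 and 0.232), and 0.24 and 0.25 without levodopa replicate 2 (adjusted p = 0.653 and 0.278; over the alternatives 0.245 to 0.670 and 0.129 to 0.505). Rps27l, a paralogue of Rps27 known as a p53 target, differed by -0.15 ± 0.16 and 0.021 ± 0.16 (SE), and by -0.032 and 0.14 without that library. Rpl36al differed by -0.072 ± 0.081 and -0.088 ± 0.081 (SE), and by 0.025 and 0.008 without it. Rpl3l, the muscle form of Rpl3, was read at 0.19 to 1.00 CPM over all libraries, a level too low to separate the arms. For the 12 copies, variants and other genes together, the median log2 fold change was -0.047 at 7.5 mg/kg and 0.016 at 15 mg/kg. Without levodopa replicate 2 it was -0.004 and 0.038.

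The largest differences among the 73 genes lay between single libraries. Levodopa replicate 2 was the highest of all 25 libraries for 52 of the 73 genes (71.2%), against 19.7% of all genes tested. It lay above every other levodopa library for 62 of the 73, against 33.0% of all genes. The same held for 35 of 44 nuclear oxidative phosphorylation genes and 14 of 21 other TOP genes. It held for 8 of 23 mTORC1 regulators, 6 of 32 translation factors and 6 of 46 ribosome biogenesis genes. Over the 73 genes, the median distance of this library from the mean of the other 4 was 0.60 on the log2 scale. By role this median was 0.60 for the small subunit, 0.67 for the large subunit and 0.39 for the copies, variants and other genes. The distance was over 1 for Rps27 (1.19), Rpl37a (1.13), Rpl41 (1.02) and Rps28 (1.01) and was 0.27 for Rpl3 and 0.28 for Rpl6. It was negative for 4 genes, among them Rpl7a (-0.78, at 1.54 CPM) and Rpl7l1 (-0.24), a nucleolar relative of Rpl7. Core genes with and without the start-site tract had medians of 0.61 (36 genes) and 0.56 (13 genes). Marker levels of glial and endothelial cells, choroid plexus and blood and the mitochondrial read share were also high in this library, as given above. Their part in these values was not tested.

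The 7.5 mg/kg replicate 1, with the fewest reads, lay above the mean of the rest of its arm for 41 genes and below it for 32. The distances ran from -1.04 to 0.89 on the log2 scale. The same split is not given here for all genes, so it is not read as particular to these genes. Rps27l (-1.04), Rps27 (-0.97), Rps28 (-0.94), Rpl37a (-0.58) and Rpl41 (-0.48) were low there, while Rps2 (0.69), Rps21 (0.64), Rpsa (0.58) and Rplp0 (0.45) were high. Rps27, Rps28, Rpl37a and Rpl41 were thus the furthest above the rest in 1 library and among the furthest below in another. In this library 9 of the 73 genes (12.3%) were the highest of all 25 and 12 (16.4%) the lowest. These shares lay near those of all genes tested (15.3% and 16.0%). Oligodendrocyte (16730 CPM), microglial (664.1 CPM) and endothelial (601.5 CPM) marker sums ranked after those of levodopa replicate 2. The blood marker sum (1117 CPM) was the highest of all, and the depth was the lowest. The sums of translation factors (4867 CPM) and mTORC1 regulators (1232 CPM) were also the highest of all 25. Those of ribosome biogenesis (1620 CPM) and nuclear oxidative phosphorylation genes (4729 CPM) were the lowest. The mitochondrial read share (9.37%) was the lowest of its arm. Their part was not tested.

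**Figure D4:**
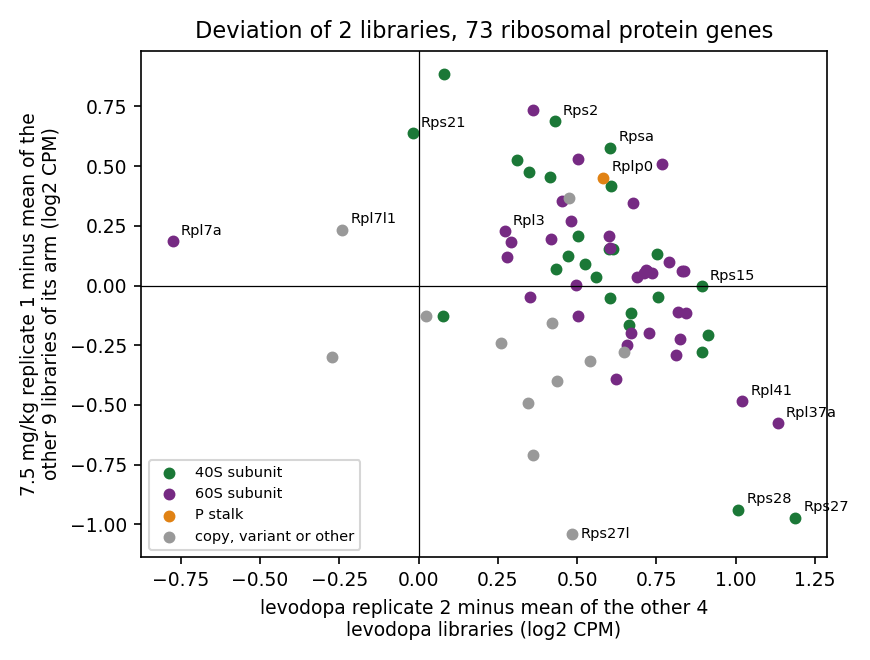
Distance, in log2 CPM, of levodopa replicate 2 from the mean of the other 4 levodopa libraries (horizontal axis) and of 7.5 mg/kg replicate 1 from the mean of the other 9 of its arm (vertical axis), 1 point per gene, coloured by role. Rps27, Rps28, Rpl37a and Rpl41 lie at the lower right, at 1.01 to 1.19 and -0.97 to -0.48, while Rps2, Rpsa and Rplp0 lie in the upper right.

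Rpl30, a large-subunit protein, showed a different pattern. It was read at 33.4 CPM (535 reads) in 7.5 mg/kg replicate 10 and at 32.8 CPM (490 reads) in 15 mg/kg replicate 3, and at 2.04 to 6.24 CPM (35 to 85 reads) in the other 23 libraries. The lower of the 2 high values was 5.26 times the highest of the others. Of 14142 genes tested, 99 had their highest values in these 2 libraries, and Rpl30 was the only gene with both at least 1.5 times all others; the next, Cdk1, stood at 1.27 times. The line of the copy Rpl30l2, which RefSeq lists as a gene of its own, held 23.7 and 24.1 CPM in the same 2 libraries, its lowest values, against 27.3 to 43.1 CPM in the other 23. Summed over both lines the level was 57.05 and 56.87 CPM in the 2 libraries and 30.3 to 49.3 CPM in the others. Whether reads were assigned differently between the lines in these libraries was not tested. The log2 fold change of Rpl30 was 0.81 ± 0.63 (SE) at 7.5 mg/kg and 0.007 without replicate 10 of that arm (adjusted p = 0.628 and 0.996). At 15 mg/kg it was 0.72 ± 0.63 (SE) and -0.087 without replicate 3 of that arm (adjusted p = 0.558 and 0.953). Leaving out levodopa replicate 2 gave 0.92 and 0.83. Over the alternatives the adjusted p ran from 0.506 to 0.996 and from 0.419 to 0.953.

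**Figure D5:**
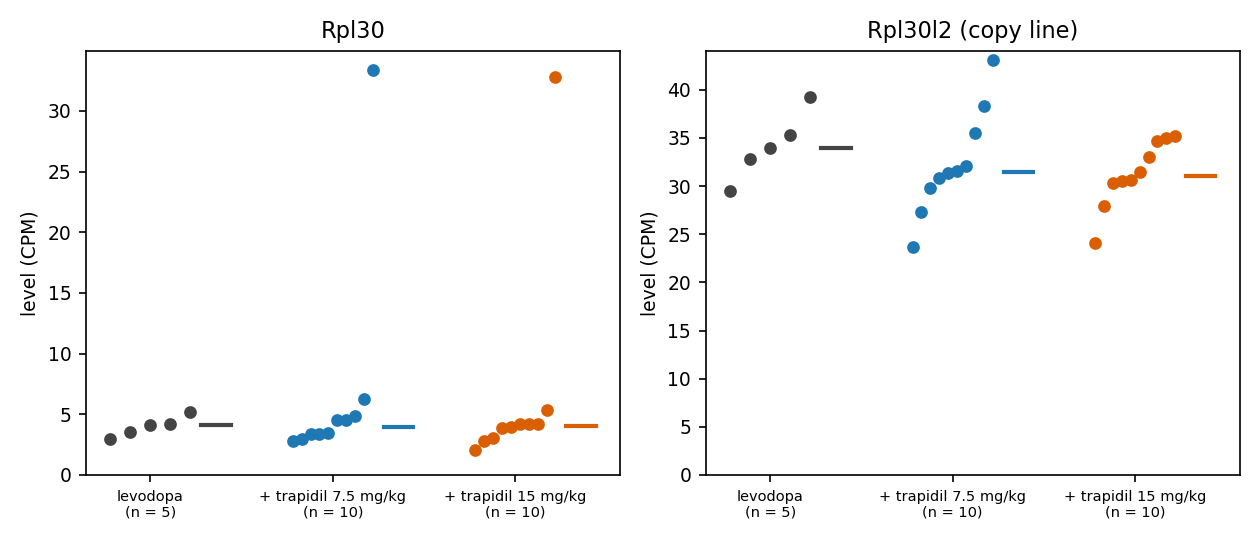
Levels (vertical axes, CPM) of Rpl30 (left) and of the line of its copy Rpl30l2 (right) in each library by arm; each point is 1 library and the short bar is the arm median. The 2 libraries at 33.4 and 32.8 CPM for Rpl30 are the lowest of their arms for the copy, at 23.7 and 24.1 CPM.

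Most ribosomal protein genes moved together from library to library. After each arm's mean was removed, the median correlation between pairs of the 73 genes over 25 libraries was 0.59, and 0.44 over 24 libraries without levodopa replicate 2. For the 61 core genes it was 0.71 and 0.55. These values describe libraries that share depth and tissue makeup and carry no test. Of the 73 genes, 56 had a correlation above 0.5 with the mean of the others. The least tied were Rpl7l1 (-0.26), Rpl7a (-0.22), Rpl3l (-0.11), Rpl30 (-0.046) and Rps9 (0.048). Rpl7a (1119 reads), Rpl3l (261) and Rpl30 (2566) are lines with few reads. Median correlations with the other lists were 0.55 for microglial markers (0.37 without levodopa replicate 2), 0.50 for endothelial markers (0.13), 0.43 for astrocyte markers (0.19), 0.35 for oligodendrocyte markers (0.27), 0.42 for nuclear oxidative phosphorylation genes (0.28), 0.30 for other TOP messenger RNAs (0.17) and -0.46 for spiny projection neuron markers (-0.20). They lay near 0 for translation factors (-0.083), ribosome biogenesis genes (-0.071) and mTORC1 regulators (-0.047).

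The wider translation machinery gave no calls with edgeR in the comparisons with levodopa. Of 21 other TOP genes tested, 0 were called and the medians were -0.014 and -0.027 at 7.5 and 15 mg/kg, or 0.039 and 0.011 without levodopa replicate 2. Eef1a1 and Eef2, the main elongation factors, differed by -0.034 ± 0.085 and -0.028 ± 0.071 at 7.5 mg/kg and by -0.12 ± 0.085 and -0.092 ± 0.071 at 15 mg/kg (log2, SE). Leaving out that library gave 0.041 and 0.010 at 7.5 mg/kg and -0.040 and -0.054 at 15 mg/kg. Of 32 translation initiation and elongation factors 0 were called, with medians of 0.007 and 0.017 (0.008 and -0.011 without it), and of 46 ribosome biogenesis genes 0, with medians of -0.012 and 0.008 (-0.023 and -0.004 without it). The unadjusted counts in these 3 lists ran from 0 to 3 in a direction, where 5.02% and 6.64% of all genes lay higher and lower at 7.5 mg/kg and 8.26% and 11.2% at 15 mg/kg. DESeq2 and limma-voom called 0.

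Of 23 mTORC1 and ribosomal protein mRNA regulators 0 were called with edgeR, and the unadjusted counts were 0 higher and 1 lower at 7.5 mg/kg and 1 higher and 2 lower at 15 mg/kg, against the same shares of all genes. The list's medians were 0.042 and 0.019, or 0.013 and 0.036 without levodopa replicate 2. Larp1, which binds the TOP tract, differed by 0.012 ± 0.050 and -0.010 ± 0.050, and Mtor, the kinase itself, by -0.040 ± 0.067 and -0.002 ± 0.067 (log2, SE). Leaving out levodopa replicate 2 gave 0.040 and 0.017 for Larp1 and -0.11 and -0.077 for Mtor. Rps6ka1, a kinase of the Rps6 protein downstream of MAP kinase, had the smallest p of the list. It stood at 20.5 ± 5.28 CPM under levodopa (SD, n = 5), 16.0 ± 5.29 at 7.5 mg/kg and 13.7 ± 1.55 at 15 mg/kg (SD, n = 10 each). Its log2 fold change at 15 mg/kg was -0.57 ± 0.16 (SE) with an adjusted p of 0.0629, and over the alternatives it ran from 0.0139 to 0.274. DESeq2 (adjusted p = 0.0253) and limma-voom (adjusted p = 0.0168) called it lower, as did edgeR in 7 of the other settings. It stood at -0.42 without levodopa replicate 2 (adjusted p = 0.274). In that setting the 1 list gene called lower at 15 mg/kg was Mycn, a growth regulator named after its values were seen, at -0.52 (adjusted p = 0.0076), against -0.35 with all libraries (adjusted p = 0.141; over the alternatives 0.00536 to 0.499). Larp4b was called higher at 15 mg/kg in 1 setting, without levodopa replicate 4 (0.27, adjusted p = 0.0498, over the alternatives up to 0.484), and was also named after its values were seen.

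Several ribosomal proteins were counted mainly on lines that carry only a locus name. Matched by gene number to RefSeq, 47 such lines are copies of ribosomal protein genes, and 19 held at least 100 reads. The line matched to Rps29-ps16 held 181746 reads while Rps29 itself held 2, and the line matched to Rpl9-ps30 held 107122 while Rpl9 held 62. Rplp2, Rpl8, Rpl39 and Fau were listed at 0, while lines matched to their copies Rplp2l2, Rpl8-ps7, Rpl39-ps14 and Faul1 held 16360, 4476, 19795 and 114848 reads. How reads that match several places were counted is not given in the sources used here, so a listed 0 does not show absence, and values of genes with near-identical copies are uncertain. Together the copy lines took 0.136% to 0.252% of counts in the levodopa arm, 0.131% to 0.160% at 7.5 mg/kg and 0.131% to 0.165% at 15 mg/kg, and the highest was again levodopa replicate 2. Of 18 copy lines tested 0 were called with edgeR, with medians of -0.13 and -0.15 at the 2 doses and 0.010 and 0.044 without that library.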

How the data were processed

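Polyadenylated RNA of the ipsilateral striatum was sequenced in 25 libraries. The authors deposited raw read counts per gene. The submitters' processing notes name FastQC, STAR and HTSeq and the Rnor_6.0 build. Versions, strand setting and the treatment of reads with several matches are not given in the sources used here.

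After edgeR's filterByExpr by arm, 14142 of 28909 genes were left. They were scaled by TMM and fitted with edgeR 4.0.16's quasi-likelihood test (R 4.3.3), with arm as the factor over the 25 libraries. P-values are two-sided and adjusted by Benjamini-Hochberg over the genes tested, with 0.05 as threshold. An adjusted p without a named tool is from this fit. CPM are TMM-scaled counts, log2 values of single libraries used a pseudocount of 0.5, and totals ran from 10838513 to 20532290 reads. The steps were tested on simulated data with planted changes larger than most differences given here and with no deviant library. That run does not show whether differences as small as these could be called. DESeq2 1.42.0 and limma 3.58.1 were alternatives, beside other scalings, filters, covariates and left-out libraries. No pair of libraries of an arm agreed within sampling noise. The labels do not tie each library to its own animal, so p-values measure the spread between these libraries.

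The genes, lists and tests were chosen with earlier results of these data known. The genes named were the 3 of smallest p per comparison and direction, a set of well-known ribosomal proteins, those of highest and lowest level and spread, those at the read minimum, and the gene of smallest p in each related list. Others are said to be named after their values were seen, including those shown for single libraries (Rps2, Rps21, Rpl37a, Rpl7a and Rpl7l1) and the 10 of smallest unadjusted p. Copies were matched by gene number to RefSeq (GRCr8), and sequences are from RefSeq.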

Additional observations from a re-analysis of the deposited data

Results flagged for a closer look

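A library was singled out where its gap to the nearest library of its arm was large against the range of that arm (Dixon's 95% critical value). Over 33 quantities in 3 arms, 20 of 99 groups met this, where chance flags about 1 in 20 groups. Genes that rise and fall together are not independent in this count. Some of the genes were also named for a small p or a large spread in these same data. The count is therefore no test against that rate.

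Levodopa replicate 2 was the highest of its arm, far from the rest, for 12 genes. Of the large subunit these were Rpl41 at 621.8 CPM, Rpl35 at 401.6, Rpl26 at 354, Rpl5 at 343.6, Rpl10 at 281.3, Rpl11 at 207.6, Rpl24 at 146.7 and Rpl34 at 59.72 CPM. Of the small subunit they were Rps27 at 299.8, Rps15a at 220.6 and Rps27a at 168.9 CPM, and the paralogue Rps27l stood at 9.994 CPM.

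The 7.5 mg/kg replicate 1 stood apart in both directions. It was the lowest of its arm for Rps28 at 41.9 CPM and the highest for Rpsa at 568.4, Rplp0 at 496.7 and Rps19 at 1.192 CPM, the last from 13 reads. Rps9, a core small-subunit protein, was highest in 7.5 mg/kg replicate 2 at 12.79 CPM, and Rpl3 in 15 mg/kg replicate 10 at 479 CPM. Rpl30 stood at 33.39 CPM in 7.5 mg/kg replicate 10 and at 32.78 CPM in 15 mg/kg replicate 3.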

How the results depend on the processing

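Over 35 alternative settings, 208 of 210 counts of ribosomal protein genes called were 0. The mitochondrial read share as a covariate gave the other 2 (3 genes lower at 7.5 mg/kg and 1 at 15 mg/kg, where 0.552% and 3.25% of all genes were called lower); the cause was not tested. Leaving out each library in turn gave 0 calls in each direction and medians from -0.143 to 0.043 at 7.5 mg/kg, from -0.14 to 0.053 at 15 mg/kg and from -0.007 to 0.03 between the doses. In the comparisons with levodopa the sign turned in 1 of these 25 fits, the one without replicate 2, and also when 7.5 mg/kg replicate 1 was left out with it (0.040 and 0.053) and with limma-voom (0.015 and 0.042). Between the doses it turned in 4 fits. Fitted with the replicate block, the medians were -0.1, -0.092 and 0.015 with 0 calls. For replicates 1 to 5, correlations between same-numbered libraries of different arms ran from -0.383 to 0.18, with 6 of 15 above 0.1. Higher numbers, shared only by the trapidil arms, were not compared. These values show no clear pairing by number and cannot exclude it. Depth limits genes such as Rps19, with 2 to 13 reads a library.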
